A study of Mus musculus with 2 samples.

Results

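The genes described here are 41 genes of mitosis, the kinetochore and cytokinesis, measured in the embryonic mouse heart. They were chosen by name, as the rows of the deposited gene tables whose Ensembl identifier belongs to a listed symbol, and all 41 were found among 43346 gene rows. Total RNA came from B6NCrl embryos at 14.5 days of gestation, with 1 library for each of 2 single hearts, and the labels list no treatment, transgene or mutation. Replicate 2 was collected on day 17 of July and replicate 1 on day 15, and the labels describe each as pup 1 of pregnant 2 while giving the sex as pooled male and female. The series thus holds 1 group, and the only contrast it offers is replicate 2 over replicate 1. Embryo and collection day differ together in that contrast and cannot be told apart, and with 1 library per embryo no p-value was computed.

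In mitosis the kinase Cdk1, held active by cyclins, drives chromosome condensation and spindle assembly. Kinetochores built on the centromere tie chromosomes to microtubules, the spindle checkpoint holds back the anaphase-promoting complex (APC/C) until all are attached, and the central spindle then guides the cleavage furrow. In the mouse heart, cardiomyocytes divide before birth and largely stop soon after it, and the endocardial, epicardial and mesenchymal cells of the embryonic heart divide as well. RNAs of this gene group accumulate mainly in the late cell cycle. Their promoters are known for the CHR element (cell cycle genes homology region), a site of the MuvB protein complexes, and for CCAAT boxes, which bind NF-Y.

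All 41 genes reached a level of at least 1 TPM (a length-corrected level, scaled to a sum of 1000000 per library) in both hearts, a level reached by 56.8% of 21474 protein coding genes. At a level of at least 10 TPM there were 40 of them, against 35.4% of protein coding genes, and Espl1 was the exception. The median over the genes' mean levels was 46.7 TPM, with library medians of 48.6 TPM in replicate 2 against 44.2 TPM in replicate 1, and an SD of 3.13 between them. The protein coding genes detected in both hearts had a median of 16.1 TPM, and 38 of the 41 genes lay above it. Mean levels ran over a 40.1-fold range, with Ube2c at the top (287 TPM) and Espl1 at the bottom (7.16 TPM). In whole hearts fewer dividing cells and less of these RNAs per cell cannot be told apart.

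Replicate 2 held 2.90e+07 expected counts (reads assigned to rows by estimation) and replicate 1 held 2.85e+07, and these genes took 0.470% of the counts on gene rows in replicate 2 and 0.454% in replicate 1. Each of them had between 613 and 9975 counts per library. The tissue label was checked on 9 cardiomyocyte markers, all detected, whose summed level was 37048 TPM in replicate 2 against 37294 TPM in replicate 1. Single markers in this sum differed in opposite directions. Myl7 had 5776 TPM in replicate 2 against 4151 TPM in replicate 1, and Myl2 had 7939 TPM in replicate 2 against 8559 TPM in replicate 1. Summed levels of other cell markers were 275 TPM in replicate 2 against 283 TPM in replicate 1 for 7 endothelial and endocardial genes, and 149 TPM in replicate 2 against 125 TPM in replicate 1 for 5 epicardial genes. For 5 fibroblast and mesenchyme genes they were 1658 TPM in replicate 2 and, lower, 1440 TPM in replicate 1. For 5 macrophage genes the sums were 157 TPM in replicate 2 against 165 TPM in replicate 1. Of 5 neural genes 3 were detected, with sums of 13.7 TPM in replicate 2 against 6.19 TPM in replicate 1. The erythroid list had 9 of 10 genes matched and detected, and summed to 34541 TPM in replicate 2 against 60860 TPM in replicate 1.

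**Figure D1:**
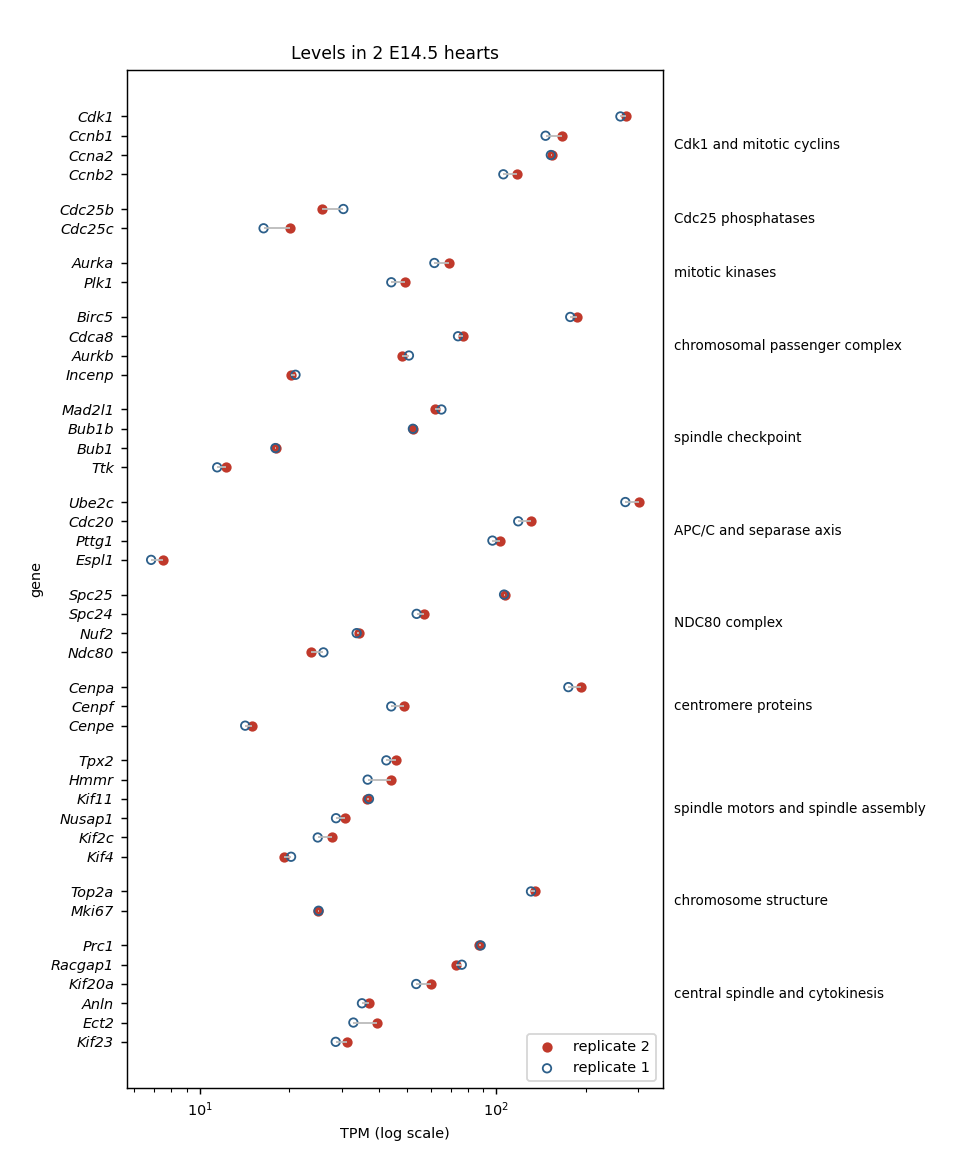
Level of each of the 41 genes in TPM on a log axis, grouped by role, with a filled point for replicate 2 and an open point for replicate 1. The points of the 2 hearts lie close to each other for every gene, while some genes of 1 role lie far apart, as Ube2c (287 TPM on average) and Espl1 (7.16 TPM) do.

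RefSeq promoter windows (250 bases before to 50 bases after the annotated start, GRCm38.p6) were available for 34 of the 41 genes, as 36 windows, since Prc1 and Ect2 each have a pair of overlapping ones. No window was at hand for Spc24, Ccna2, Incenp, Cdc25c, Tpx2, Kif20a and Aurkb. The CHR element was searched as TTTGAA or TTCGAA and the CCAAT box as CCAAT, both on either strand, and a match is a run of letters, not a shown binding site. A CHR match was present in 29 of 36 windows (80.6%, 27 genes) and in 19.2% of all 32851 mouse promoter windows in the table. Within 50 bases of the start, a limit chosen after seeing the data, it was present in 27 of 36 (75.0%) and in 5.31% of all windows. A CCAAT box was present in 28 of 36 (77.8%, 26 genes) and in 37.4% of all windows, and both motifs together in 26 of 36 (72.2%) and in 7.52% of all windows.

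The following 6 windows are cut to 150 bases before and 30 bases after the RefSeq start and are written 5′ to 3′ on the strand of the gene (RefSeq, GRCm38.p6). They were picked to show the common arrangement, CCAAT boxes upstream of a CHR match next to the start, in genes of different roles. Capitals mark the motif matches, where ATTGG is the CCAAT box and TTCAAA the CHR element read on the other strand.
Ccnb2, chr9:70421525-70421704 (- strand): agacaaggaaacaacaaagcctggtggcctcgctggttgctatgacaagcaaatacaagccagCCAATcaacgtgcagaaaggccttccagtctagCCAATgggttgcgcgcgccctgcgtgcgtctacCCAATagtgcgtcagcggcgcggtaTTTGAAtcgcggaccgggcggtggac
Cdk1, chr10:69352883-69353062 (- strand): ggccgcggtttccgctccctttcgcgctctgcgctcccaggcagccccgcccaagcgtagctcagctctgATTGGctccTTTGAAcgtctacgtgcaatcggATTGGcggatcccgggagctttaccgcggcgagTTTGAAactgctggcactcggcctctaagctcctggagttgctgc
Ube2c, chr2:164769779-164769958 (+ strand): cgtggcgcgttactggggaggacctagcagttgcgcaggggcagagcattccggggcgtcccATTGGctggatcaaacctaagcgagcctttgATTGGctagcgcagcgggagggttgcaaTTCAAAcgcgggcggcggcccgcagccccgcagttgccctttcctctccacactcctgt
Hmmr, chr11:40733408-40733587 (- strand): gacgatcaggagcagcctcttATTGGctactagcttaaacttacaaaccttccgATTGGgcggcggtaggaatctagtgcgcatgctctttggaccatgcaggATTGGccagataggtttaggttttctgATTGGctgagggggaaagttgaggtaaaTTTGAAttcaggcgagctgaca
Kif11, chr19:37376232-37376411 (+ strand): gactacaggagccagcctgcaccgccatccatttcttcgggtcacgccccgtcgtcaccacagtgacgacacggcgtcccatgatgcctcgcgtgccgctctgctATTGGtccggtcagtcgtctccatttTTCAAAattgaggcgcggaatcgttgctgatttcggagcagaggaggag
Cenpf, chr1:189688057-189688236 (- strand): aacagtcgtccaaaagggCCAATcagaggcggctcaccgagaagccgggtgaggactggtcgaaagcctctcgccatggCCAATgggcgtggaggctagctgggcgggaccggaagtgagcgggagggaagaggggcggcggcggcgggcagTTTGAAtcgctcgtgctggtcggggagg

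In the Ccnb2 window the boxes begin at -87, -54 and -21 from the start, that is 33 bases apart each time, and CHR matches begin at 5 and, outside the printed stretch, at -167. Cdk1 has boxes at -80 and -48, 32 bases apart, and another outside the printed stretch at -208, with CHR matches at -71 and -15. In Ube2c the boxes nearest the start are at -88 and -57, 31 bases apart, and the CHR match is at -29. Hmmr has boxes at -129, -96, -47 and -20 in the printed stretch and a CHR match at 9. Kif11, with 1 box at -45 and a CHR match at -19, and Cenpf, with boxes at -132 and -71 and a CHR match at 3, show sparser forms of the same order. Over all windows the 39 CHR matches had a median position of 3, and 28 of them lay within 50 bases of the start. The 64 CCAAT matches had a median position of -66, and 42 lay between -150 and -21. Of 36 neighbouring CCAAT pairs, 9 were spaced 31 to 35 bases apart, in Aurka, Ccnb1, Ccnb2, Cdca8, Cdk1, Hmmr, Spc25 and Ube2c. A CHR and a CCAAT match overlapped in 1 case, that of Cdca8.

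Windows with neither motif were those of Birc5, Mad2l1, Nuf2, Nusap1 and Pttg1. A CCAAT box without a CHR match was found in Ccnb1 and Cenpe, and a CHR match without a CCAAT box in Anln, Kif2c and Ndc80. Absence says only that these letters are not in the window. The windows of Kif2c and Pttg1 lie wholly inside the annotated gene, downstream of its 5′ end. The same holds for the windows of Cdca8 and Kif4, which were counted above as having both motifs. Promoters of 15 genes of DNA replication (17 windows), whose RNAs peak earlier in the cell cycle, held a CHR match in 23.5%, a CHR match within 50 bases of the start in 5.88% and a CCAAT box in 70.6%.

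**Figure D2:**
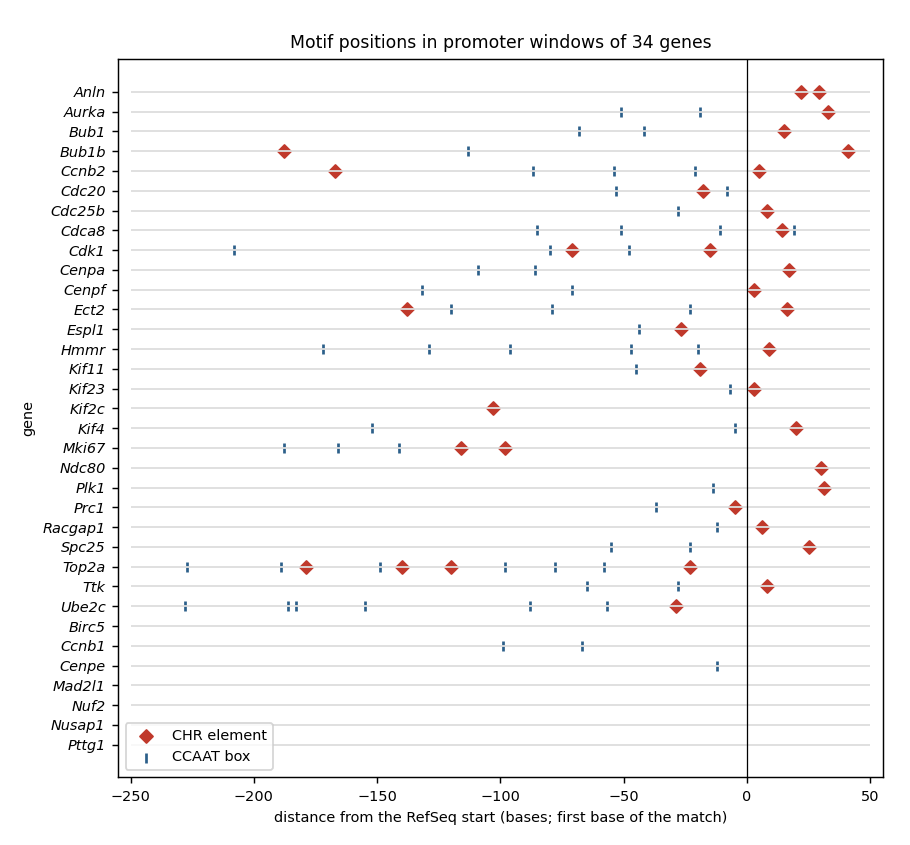
Position of CHR (diamonds) and CCAAT (bars) matches in the promoter windows of 34 genes, in bases from the RefSeq start, with the overlapping windows of Prc1 and Ect2 drawn as 1 row each. Diamonds cluster at the start (median position 3) and bars lie mostly upstream of it (median position -66), while 5 genes have no match.

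Cdk1 and its cyclins were among the most abundant members. Cdk1, the kinase that drives entry into mitosis, stood at 274 TPM in replicate 2 against 262 TPM in replicate 1. Ccnb1 (cyclin B1), its main mitotic partner, was at 167 TPM in replicate 2 against 147 TPM in replicate 1. Ccna2 (cyclin A2), which acts in S phase and early mitosis, was nearly level at 154 TPM in replicate 2 against 153 TPM in replicate 1, and Ccnb2 (cyclin B2), the gene with evenly spaced boxes, was at 118 TPM in replicate 2 against 106 TPM in replicate 1. Within each heart the B-type cyclins kept one order, Ccnb1 above Ccnb2, with a log2 ratio of TPM of 0.49 ± 0.02 (SD, n = 2).

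The Cdc25 phosphatases remove the inhibitory phosphates from Cdk1, and they lay far below it. Cdc25b had 25.8 TPM in replicate 2 against 30.4 TPM in replicate 1, and Cdc25c had 20.2 TPM in replicate 2 against 16.4 TPM in replicate 1. The hearts thus differed in opposite directions, and the log2 ratio of Cdc25b over Cdc25c was 0.36 in replicate 2 and 0.89 in replicate 1. Cdc25b was the more abundant in both.

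Among the mitotic kinases, Aurka (Aurora A, a kinase of centrosomes and spindle poles) was at 69.2 TPM in replicate 2 against 61.8 TPM in replicate 1. Plk1 (Polo-like kinase 1), which acts at centrosomes, kinetochores and the central spindle, was at 49.3 TPM in replicate 2 against 44.2 TPM in replicate 1. Both were somewhat higher in replicate 2.

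The chromosomal passenger complex brings Aurora B to centromeres and later to the central spindle, and its 4 subunit RNAs were at very different levels. Birc5 (survivin) was at 187 TPM in replicate 2 against 178 TPM in replicate 1, and Cdca8 (borealin) at 76.9 TPM in replicate 2 against 74.2 TPM in replicate 1. The kinase Aurkb was at 48.1 TPM in replicate 2 against 50.7 TPM in replicate 1. Incenp, the scaffold, was lowest at 20.2 TPM in replicate 2 against 20.98 TPM in replicate 1. The order of the 4 was the same in both hearts, and the highest stood 9.24-fold above the lowest in replicate 2 and 8.46-fold in replicate 1. The log2 ratio of Birc5 over Incenp was 3.14 ± 0.09 in TPM (SD, n = 2) and 1.37 in expected counts, which are not corrected for length. Aurka exceeded Aurkb in both hearts, with a log2 ratio of 0.41 ± 0.17 (SD, n = 2).

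In the spindle checkpoint, Mad2l1 (Mad2), which binds and blocks Cdc20, had 62.1 TPM in replicate 2 against 65.2 TPM in replicate 1. Bub1b (BubR1), another part of the inhibitor of the APC/C, had 52.3 TPM in each heart. The kinases were rarer: Bub1 had 18.04 TPM in replicate 2 against 17.9 TPM in replicate 1, and Ttk (Mps1), which starts checkpoint signalling at kinetochores, had 12.3 TPM in replicate 2 against 11.4 TPM in replicate 1. In TPM the ratio of Bub1 to its relative Bub1b was nearly constant, with a log2 ratio of -1.54 in both hearts. In expected counts the log2 ratio was -1.76 in replicate 2 and -1.69 in replicate 1.

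The genes that end mitosis held both the highest and the lowest member. Ube2c, the ubiquitin-conjugating enzyme that works with the APC/C, had 302 TPM in replicate 2 against 272 TPM in replicate 1. Cdc20, the APC/C activator, had 131 TPM in replicate 2 against 119 TPM in replicate 1. Pttg1 (securin), the inhibitor of separase, had 102.8 TPM in replicate 2 against 96.96 TPM in replicate 1. Espl1 (separase), the protease that cuts cohesin, had only 7.49 TPM in replicate 2 against 6.83 TPM in replicate 1. Per unit of length securin RNA exceeded separase RNA 14.0-fold (log2 ratio 3.80 ± 0.03, SD, n = 2). Without the length correction the log2 ratio of expected counts was 0.44, since the Espl1 transcript is long (6630 nt).

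The NDC80 complex is the kinetochore's microtubule-binding unit, a tetramer with equal numbers of its subunits. Spc25 had 107 TPM in replicate 2 against 106 TPM in replicate 1, and its partner Spc24 had 56.8 TPM in replicate 2 against 53.8 TPM in replicate 1. The other dimer was rarer, with Nuf2 at 34.3 TPM in replicate 2 against 33.8 TPM in replicate 1, and Ndc80 (Hec1) at 23.7 TPM in replicate 2 against 26.1 TPM in replicate 1. The RNA levels of the 4 were unequal in both hearts, with a highest over lowest ratio of 4.49 in replicate 2 and 4.07 in replicate 1. Spc25 exceeded Spc24 by a log2 ratio of 0.94 ± 0.05, and Ndc80 lay below Nuf2 by a log2 ratio of -0.45 ± 0.11 (SD, n = 2 each).

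Of the centromere proteins, Cenpa, the histone H3 variant that marks the centromere, was at 193 TPM in replicate 2 against 175 TPM in replicate 1. Cenpf, a large protein of the outer kinetochore, was at 48.6 TPM in replicate 2 against 44.2 TPM in replicate 1. The kinetochore motor Cenpe was at 14.9 TPM in replicate 2 against 14.2 TPM in replicate 1. Cenpf exceeded Cenpe by a log2 ratio of 1.67 ± 0.05 in TPM (SD, n = 2), and by 0.72 in expected counts. The size of this ratio depends on which Cenpf transcripts are counted. On protein coding transcripts alone Cenpf was at 28.3 TPM in replicate 2 against 27.4 TPM in replicate 1, still above Cenpe.

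Spindle assembly factors and motors had middling levels. Tpx2, which activates Aurora A and seeds microtubules, had 45.8 TPM in replicate 2 against 42.5 TPM in replicate 1. Hmmr, a spindle pole protein with repeated CCAAT boxes in its window, had 43.9 TPM in replicate 2 against 36.8 TPM in replicate 1, and Nusap1, which bundles microtubules near chromatin, had 30.8 TPM in replicate 2 against 28.8 TPM in replicate 1. Kif11 (Eg5), the motor that pushes the spindle poles apart, was nearly level, with 36.5 TPM in replicate 2 against 37.1 TPM in replicate 1. Kif2c (MCAK), which takes microtubule ends apart, had 27.9 TPM in replicate 2 against 24.9 TPM in replicate 1, and the chromatin-bound kinesin Kif4 had 19.3 TPM in replicate 2 against 20.3 TPM in replicate 1. Of chromosome structure genes, Top2a, the topoisomerase that untangles sister DNA, had 135 TPM in replicate 2 against 131 TPM in replicate 1. Mki67 (Ki-67), which coats mitotic chromosomes and is a common marker of cycling cells, had 24.9 TPM in replicate 2 against 25.1 TPM in replicate 1.

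For cytokinesis, Prc1, which bundles the microtubules of the central spindle, was at 87.3 TPM in replicate 2 against 88.5 TPM in replicate 1. Racgap1 and Kif23 form the centralspindlin complex, and Racgap1 was at 73.0 TPM in replicate 2 against 76.4 TPM in replicate 1, while Kif23 was at 31.2 TPM in replicate 2 against 28.7 TPM in replicate 1. Kif20a (Mklp2), which carries the passenger complex to the central spindle, was at 60.2 TPM in replicate 2 against 53.6 TPM in replicate 1. The furrow genes were close to each other. Anln (anillin), a scaffold of the contractile ring, was at 37.2 TPM in replicate 2 against 35.2 TPM in replicate 1, and Ect2, the exchange factor that activates RhoA, was at 39.4 TPM in replicate 2 against 32.9 TPM in replicate 1. The centralspindlin ratio of Kif23 over Racgap1 had a log2 of -1.32 ± 0.13 (SD, n = 2). All 10 pairs of related genes compared in this way had the same sign in both hearts.

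The genes differed little between the hearts. On expected counts scaled by TMM (a scaling that centres the bulk of genes on no change), 24 of 41 were higher in replicate 2 and 17 lower, where 48.9% of the 11958 genes averaging at least 100 counts were higher. The median log2 difference, replicate 2 over replicate 1, was 0.03 for the 41 genes and -0.00 for all 11958. A log2 difference of at least 0.32, the threshold used here, was reached by 0 of the 41 upwards, against 5.38% of those genes, and by 0 downwards, against 3.28%. Of 7202 genes with counts in the same range, 95% of the differences lay between -0.26 and 0.28, and all 41 genes lay inside that range. The threshold of 0.32 lies outside that range in both directions, so few genes of like count passed it either.

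The split between higher and lower depended on the scaling. Scaled on the spike-in RNAs, all genes shifted by 0.11 towards replicate 2, and 37 of the 41 genes were then higher in it (29 when scaled on the total of gene counts), with a median log2 difference of 0.14. The shift is the same for every gene, so taking it off returns the TMM median of 0.03 by construction.

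Counting error alone was narrow, so that small differences passed it. The exact 95% interval of the fold lay above 1 for 12 genes, namely Ube2c, Cenpa, Ccnb1, Cdc20, Ccnb2, Aurka, Kif20a, Plk1, Hmmr, Ect2, Kif2c and Cdc25c. It lay below 1 for 7, namely Racgap1, Mad2l1, Aurkb, Kif11, Cdc25b, Mki67 and Ndc80, and included 1 for the remaining 22. Of the 7202 genes of like count, 16.9% had an interval above 1 and 23.1% an interval below 1. These intervals hold no variation between embryos, and reads are not independent molecules.

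The Cdc25 genes marked both ends. Cdc25c had 781 counts in replicate 2 and 631 in replicate 1, a TMM-scaled fold of 1.19 (95% counting interval 1.07 to 1.33). Cdc25b had 1428 counts in replicate 2 and 1630 in replicate 1, a fold of 0.843 (0.785 to 0.906). Next among the lower genes was Ndc80, with 1048 counts in replicate 2 and 1146 in replicate 1 and a fold of 0.880 (0.809 to 0.958). Ccnb1, far more abundant, had 8116 counts in replicate 2 and 7056 in replicate 1, a fold of 1.11 (1.07 to 1.14).

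**Figure D3:**
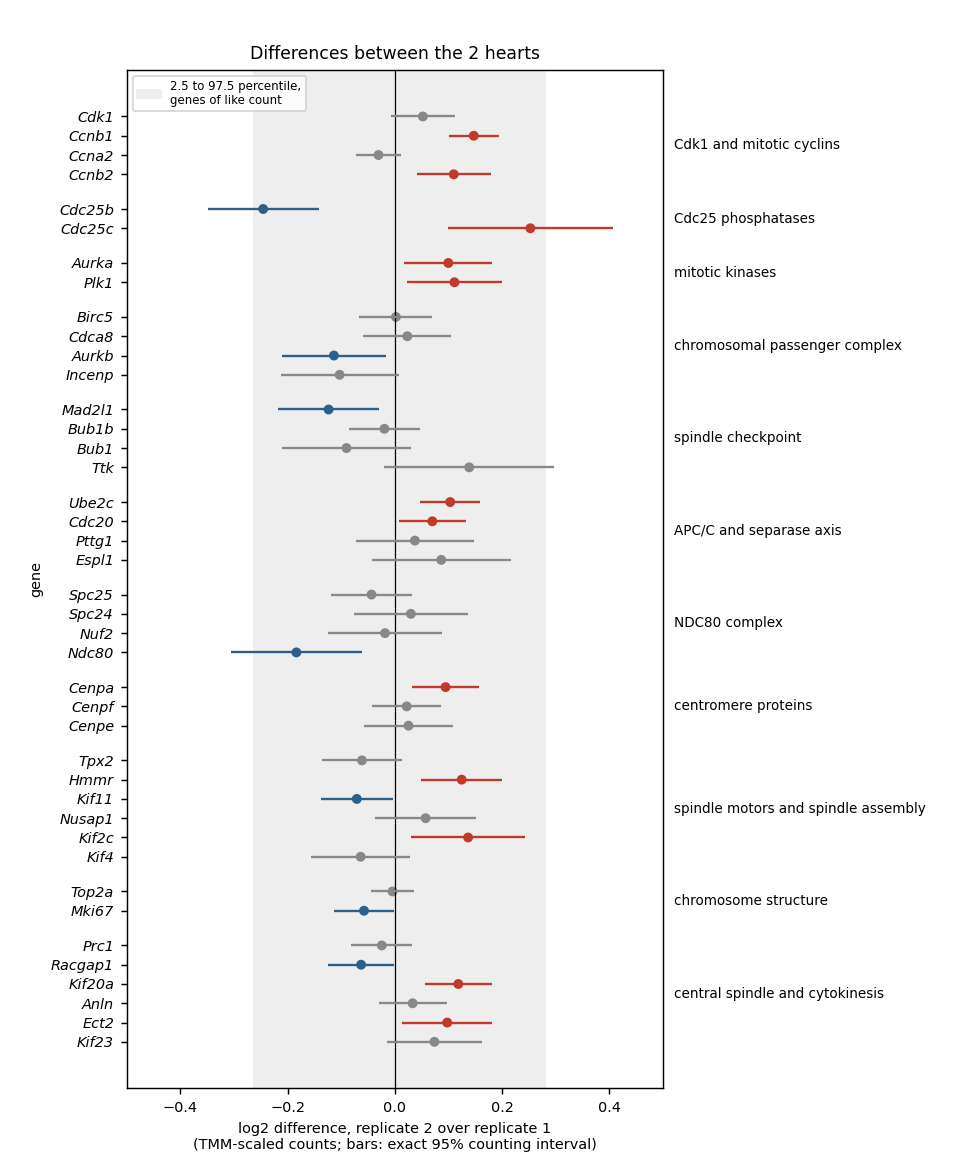
Log2 difference of replicate 2 over replicate 1 for each of the 41 genes on TMM-scaled counts, with exact 95% counting intervals as bars, red where the interval lies above 0, blue where it lies below and grey where it includes 0. All points lie within the shaded range of genes of like count (-0.26 to 0.28), with Cdc25c and Cdc25b nearest its edges.

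TPM and counts can give different sizes of difference, as the TPM also moves with the authors' mean transcript length, and that length moved by more than 5% between the libraries for 4 genes. Hmmr differed by a log2 of 0.26 in TPM and 0.12 in counts, and Ect2 by 0.26 in TPM and 0.10 in counts. Tpx2 changed sign, at 0.11 in TPM and -0.06 in counts, and Ttk was at 0.10 in TPM and 0.14 in counts. Cenpf, with a smaller change of length, was at 0.14 in TPM and 0.02 in counts. TPM and TMM-scaled counts also differ in scale. For genes with no change of length, such as Ccnb2 and Plk1, the log2 difference in TPM exceeded that in counts by 0.05. In all 7 genes changed sign between TPM and counts (Tpx2, Bub1, Bub1b, Ccna2, Top2a, Spc25 and Nuf2), and 31 of 41 were higher in replicate 2 by TPM. Length hardly moved for Spc25 (-0.07%) and Top2a (0.10%), so their sign changed with the scale.

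The 20 genes of DNA replication, which act in S phase, were set beside these as the nearest comparison. All 20 were lower in replicate 2, with a median log2 difference of -0.13 and a range from -0.28 (Pole) to -0.03 (Tyms), whereas the 41 mitosis genes had a median of 0.03 and ran from -0.25 to 0.25. The difference between these lists was not tested, since there is 1 library per heart and the comparison was picked with the values known. Scaled on spike-ins, 14 of the 20 were lower and the median was -0.02. Among 8 erythroid genes with at least 100 counts all were lower in replicate 2, with a median log2 difference of -0.90. Their part in the difference between the lists was not tested. Without erythroid and mitochondrial genes in the TMM scaling, the medians were 0.03 for the 41 genes and -0.13 for the 20. A change of scaling shifts every gene alike, so it cannot alter the gap between the lists.

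**Figure D4:**
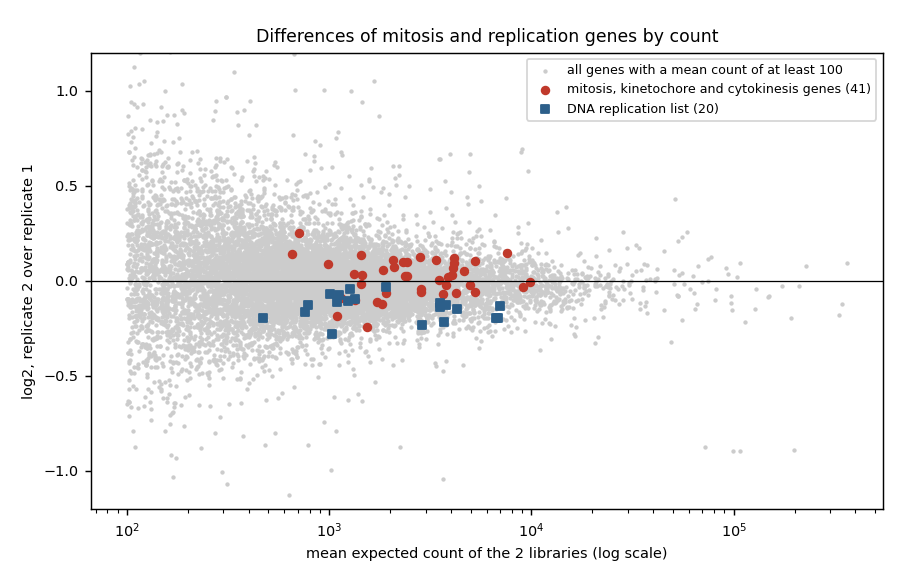
Log2 difference of replicate 2 over replicate 1 against the mean expected count on a log axis, for all genes averaging at least 100 counts (grey, of which 36 of 11958 lie beyond the axis), the 41 mitosis, kinetochore and cytokinesis genes (red circles) and 20 DNA replication genes (blue squares). The red points lie on both sides of 0, with 24 above and 17 below, and the blue points all lie below it.

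Beyond the 41, 83 further genes of mitosis and its control were followed, 12 of them transcription regulators of the cell cycle. All 83 were detected, with a median level of 20.8 TPM. Of these, 37 were higher and 46 lower in replicate 2, and the threshold of 0.32 was passed upwards by 2 (Kif18b and Kifc1) and downwards by 2 (Mastl and E2f7), beside 5.38% upwards and 3.28% downwards over all genes. In the constitutive centromere network the highest was Cenpm at 40.7 TPM on average and the lowest Cenpu at 5.92 TPM. In the Mis12 and Knl1 complexes Zwint was highest (203 TPM) and Nsl1 lowest (10.3 TPM), and among the Ska, RZZ and shugoshin genes Ska2 was highest (48.5 TPM) and Kntc1 lowest (6.61 TPM). Condensin ran between Smc4 (115 TPM) and Ncapg2 (9.77 TPM), and the APC/C between Anapc13 (241 TPM) and Anapc10 (8.76 TPM). Among other kinesins and cytokinesis genes Tacc3 led (86.9 TPM) and Kif14 was last (3.38 TPM). Cks1b, a small Cdk-binding protein, led the genes of Cdk1 control (282 TPM), and Mastl was last (7.48 TPM). Cdk1 itself averaged 268 TPM over all its transcripts and 150 TPM on its protein coding ones.

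The listed transcription regulators of the cell cycle, not all of them specific to its late part, were less abundant. Their list median was 12.3 TPM, with a range from E2f4 (37.4 TPM) down to E2f1 (6.16 TPM). Foxm1, which with MuvB activates late cell cycle genes, was at 19.8 TPM in replicate 2 against 17.9 TPM in replicate 1, and Mybl2 (B-Myb) at 8.45 TPM in replicate 2 against 8.32 TPM in replicate 1. Of 8 paralogues of the Aurora, cyclin, Cdc25 and Polo-like genes 4 were detected in both hearts (Plk2, Plk3, Plk4 and Cdc25a, the last also counted among the 83), with Plk2 highest (87.1 TPM) and Plk5 lowest (0.025 TPM).

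Several genes were split over transcripts. Of the 41 genes, 12 had a single transcript with a mean share of 100%, and 29 had more than 1 annotated transcript. Over these 29 the leading transcript held a median of 79.8% of the gene's TPM (79.2% in replicate 2 and 77.8% in replicate 1), and the same transcript led in both hearts for 27. The exceptions were Kif20a, whose transcript Kif20a-201 held 57.8% in replicate 2 and 48.8% in replicate 1, and Prc1. For Prc1, Prc1-202 held 33.6% in replicate 2 and 27.1% in replicate 1, and Prc1-206 held 25.96% in replicate 2 and 29.2% in replicate 1. The leading share was under 80% for 15 genes and under 50% for 4.

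Transcripts not annotated as protein coding carried a large part of some high TPM values, and for Cdk1 and Top2a these were mostly short. For Cdk1, the coding transcript Cdk1-202 held 54.2% of TPM in replicate 2 and 52.2% in replicate 1 but 74.6% of counts on average, while the retained-intron transcripts Cdk1-204 (475 nt) and Cdk1-203 (378 nt) held 24.9% and 18.4% of TPM. On coding transcripts alone Cdk1 was at 156 TPM in replicate 2 against 144 TPM in replicate 1, which placed it 4th of the 41 genes, behind Ube2c, Birc5 and Ccna2. Top2a-201 held 63.4% of Top2a TPM and 92.3% of its counts. For Cenpa the leading transcript, Cenpa-202 (1151 nt, 51.6% of TPM), is annotated as a target of nonsense-mediated decay. Transcripts of Cenpa not annotated as protein coding held 70.9% of TPM and 66.8% of counts in all. On coding transcripts alone Cenpa was at 58.5 TPM in replicate 2 against 48.8 TPM in replicate 1, and placed 18th of the 41 genes.

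For Cenpf the leading transcript depended on the scale. By TPM its leader was Cenpf-203 (3001 nt) with 35.5%, whereas by counts it was Cenpf-204 (11130 nt) with 67.96%. The 609-nt Cenpf-201 held 32.0% of TPM and 4.09% of counts. The other leaders under 80% were Tpx2-202 (38.4%), Ect2-203 (40.5%), Cdc25b-202 (55.1%), Pttg1-202 (58.5%), Spc25-201 (68.6%), Racgap1-201 (72.4%), Mad2l1-202 (73.0%), Aurkb-201 (78.4%) and Ttk-201 (79.8%), each as the mean of both hearts.

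**Figure D5:**
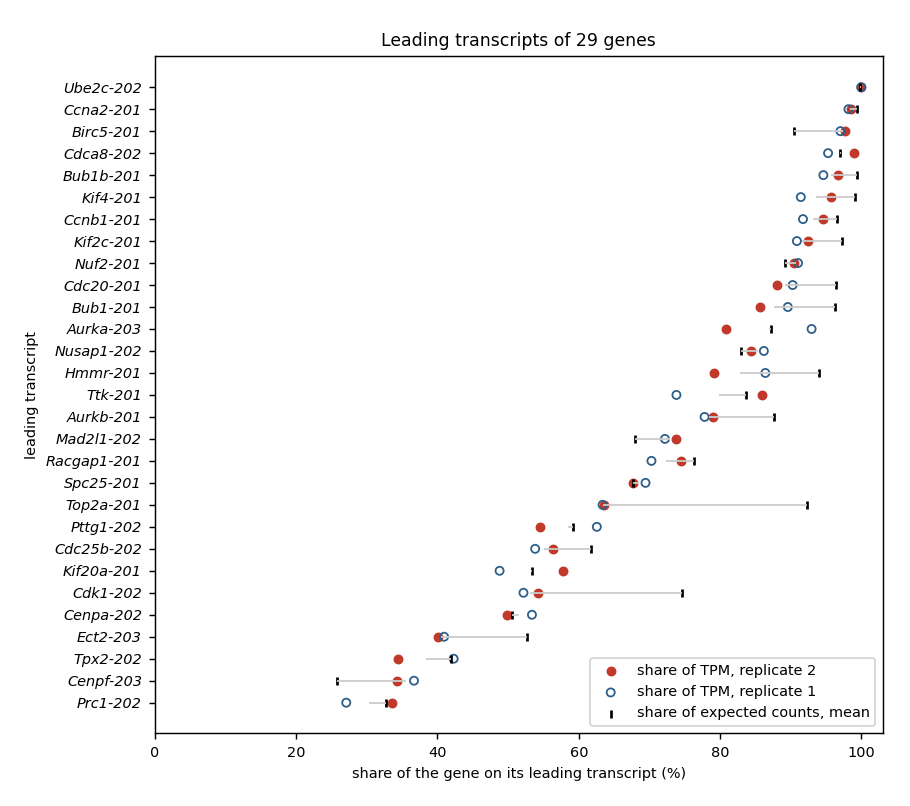
Share of each gene's TPM (percent) on its leading transcript for the 29 genes with more than 1 annotated transcript, with a filled point for replicate 2, an open point for replicate 1 and a bar for the mean share of expected counts. Points of the 2 hearts lie near each other for most genes, and the bar lies far to the right of the points for Top2a (92.3%) and Cdk1 (74.6%).

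Reads could in part be shared with overlapping genes, since the use of strand is not given in the sources used here. By the annotation 21 of the 41 genes overlap another gene, 17 of them on the opposite strand and 10 with a protein coding gene there. The partner with the highest count was Cdc23, which overlaps Kif20a by 2327 bases and had 4652 counts in replicate 2 and 4414 in replicate 1. Kif4 and Pdzd11, Ccna2 and Exosc9, Cdc20 and Elovl1, and Nusap1 and Oip5 overlap likewise, so these levels are less certain. Uncertainty from reads that fit several places was small by the authors' own estimate: the posterior standard deviation of the count was 0 for 29 genes and at most 0.436% of the count, that of Kif20a.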

How the data were processed

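Each library had a gene and a transcript table on mm10 with the M4 release of GENCODE, per the submitters' processing notes. Neither aligner nor quantifier nor use of strand is given in the sources used here. Expected counts are estimated counts per gene in the deposited tables, unscaled and not always whole, per the file headers and values. TPM and FPKM were computed by the authors. Shares of transcripts are in percent, computed here from the deposited TPM and expected counts. Names, positions and transcript types were taken from GENCODE M21, built on the same assembly, and 42462 of 43346 gene rows (98.0%) had a symbol. Expected counts were rounded for edgeR 4.0.16 in R 4.3.3, used for TMM scaling on genes averaging at least 10 counts and for no test, with a prior of 0.5 in log2 differences. DESeq2 1.42.0 gave alternative size factors. Counting intervals are exact (Clopper-Pearson, 95%) and cover counting error only. Python 3.11.15, pandas 2.3.3 and scipy 1.17.1 were used for the rest. The fold calculation was tested on simulated data. All 41 genes are named with values, and of each further list the highest and the lowest member. The genes, lists and pairs were chosen with earlier results of these data known. RefSeq promoter windows (GRCm38.p6) were searched as letters.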

Additional observations from a re-analysis of the deposited data

How the results depend on the processing

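The median level of 46.7 TPM was 34.1 as the authors' FPKM, 58.7 after rescaling TPM without spike-in, mitochondrial, haemoglobin and ribosomal rows, and 42.1 on protein coding transcripts only, an alternative chosen after seeing the data; with either library alone it was 44.2 to 48.6. All 41 genes were detected under each of these alternatives, and 40 at a limit of 10 TPM. Spike-in scaling moved the median difference between the hearts to 0.14, raised the genes higher in replicate 2 to 37 and took 1 gene (Cdc25c) past a log2 difference of 0.32; under the other scalings, filters and priors run that last count was 0. The median leading transcript share was 87.2% by expected counts and 77.8% to 79.2% with either library alone. On the strand of the gene alone the CHR share was 66.7% (80.6% on both strands) and the CCAAT share 50% (77.8%), where all windows had 11.6% and 21.1%. Within 50 bases of the start, a window chosen after seeing the data, they were 75.0% and 55.6%, where all windows had 5.31% and 13.6%. The cause was not tested beyond what each alternative leaves out. Leaving out a library leaves no difference between hearts to compute. No paired analysis was possible because the series holds 1 group. With 1 library per heart the spread between embryos cannot be separated from that between libraries.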

Other observations

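Among the 83 further genes of mitosis and its control, 4 passed a log2 difference of 0.32 between the hearts. These were 2 upwards and 2 downwards, beside 5.38% upwards and 3.28% downwards over all genes. They are named here because of their values. The minus-end and plus-end directed kinesins Kifc1 and Kif18b were higher in replicate 2, with 196 counts in replicate 2 and 147 in replicate 1 for Kifc1, and 191 in replicate 2 and 139 in replicate 1 for Kif18b. Lower in replicate 2 were Mastl, the kinase that holds back a phosphatase opposed to Cdk1, with 607 counts in replicate 2 and 764 in replicate 1, and the repressor E2f7, with 629 in replicate 2 and 771 in replicate 1. Their log2 differences were 0.36 (Kifc1), 0.40 (Kif18b), -0.39 (Mastl) and -0.35 (E2f7), on lower counts than most of the 41 genes.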
